A study of Homo sapiens with 8 samples.

Results

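S100A4, S100A6, S100A8, S100A9, S100A10, S100A11, AIF1, LGALS1, LGALS3 and LGALS9 are 10 of the 58395 genes counted in a polysome profiling experiment on OCI-AML3, an established cell line from human acute myeloid leukaemia. They were taken by symbol, as genes for calcium-binding proteins of myeloid cells and for galectins. The set was chosen by measured values among others, because LGALS1 and AIF1 had stood higher in the U libraries than in the CT libraries of these same data. Differences between U and CT are therefore given below for these genes as a description, with no test. Tests of these genes are kept to the comparison of polysome RNA with input RNA. Other genes, in lists chosen with earlier results of these data known, were also tested between U and CT. All 10 genes were among the 16503 that passed the filter on low counts.

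Cells had been infected with a short hairpin against FBL or with a control hairpin, per the labels' protocols. FBL encodes fibrillarin, the methyltransferase that adds 2'-O-methyl groups to ribosomal RNA. Cycloheximide at 100 µg/mL for 15 min held ribosomes on their mRNAs. Input RNA came from 100 µL of each cleared lysate, and a further 290 µL was run on a sucrose gradient of 10% to 50% and split into 14 fractions. The sources used here do not give the fractions that make up polysome RNA. The 8 libraries form 4 groups of 2, namely polysome U, polysome CT, input U and input CT. U carries the genotype label FBL knockdown and CT the label WT, and all cells of both had been infected and treated with cycloheximide. The sources used here give neither the hairpin sequence nor a clone, nor whether libraries 1 and 2 came from separate cultures, so p-values measure only the spread between these libraries.

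S100 proteins are small proteins with EF hands, the loop that holds calcium, and they act inside the cell on the cytoskeleton and membranes and, once released, on receptors such as TLR4 and RAGE. S100A8 and S100A9 form calprotectin, which fills the cytoplasm of neutrophils and monocytes. AIF1, also called IBA1, is a calcium-binding partner of actin in macrophages and microglia. Galectins bind beta-galactosides on glycoproteins, and galectin-1, galectin-3 and galectin-9 are the products of LGALS1, LGALS3 and LGALS9. The RNA that sediments with polysomes is the part of an mRNA that is loaded with ribosomes, and short coding sequences have room for few of them.

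Libraries held 22171255 to 43118190 reads assigned to genes. FBL, the targeted gene, stood at 499 and 165 CPM (reads of the gene per 1000000 reads, after TMM scaling of the libraries) in polysome U libraries 1 and 2, against 498 and 163 CPM in polysome CT libraries 1 and 2. It stood at 253 and 84.2 CPM in input U, against 250 and 88.1 CPM in input CT. FBL was low in the libraries numbered 2 of both labels and did not part the libraries labelled U from those labelled CT. The FBL counts thus do not bear out the labels, and each direction between U and CT rests on the labels alone. Of myeloid markers, SPI1, the transcription factor PU.1, stood at 743 to 1130 CPM, CD33 at 8.1 to 22.8 CPM and CD14 at 20.9 to 65.3 CPM. MPO, the granule myeloperoxidase, reached at most 3.72 CPM. Other granule genes were high, with CTSG at 1543 to 3406 CPM, ELANE at 684 to 1300 CPM and PRTN3 at 460 to 902 CPM. The T-cell gene CD3E, the B-cell gene MS4A1 and the epithelial gene EPCAM were at 0 in every library.

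The pair S100A8 and S100A9 moved together with the number of the library. Their promoters, taken from RefSeq on GRCh38.p14, are shown because both genes lie close together in the S100 cluster and their mRNAs shared this pattern. Each window runs from 250 bases before the start site to 50 after it and is written 5′ to 3′ on the strand of the gene. Capitals mark every match, on either strand, to TATAAA (the TATA box), TTNNGNAA (a form of the C/EBP site) and GAGGAA (a core of the PU.1 site).
S100A8, chr1:153391024-153391323, minus strand: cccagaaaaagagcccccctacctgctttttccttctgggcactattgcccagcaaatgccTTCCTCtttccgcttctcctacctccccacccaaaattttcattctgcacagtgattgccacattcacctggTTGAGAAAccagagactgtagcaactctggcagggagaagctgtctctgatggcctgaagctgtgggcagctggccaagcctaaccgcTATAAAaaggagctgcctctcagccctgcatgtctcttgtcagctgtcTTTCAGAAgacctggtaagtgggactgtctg
S100A9, chr1:153357604-153357903, plus strand: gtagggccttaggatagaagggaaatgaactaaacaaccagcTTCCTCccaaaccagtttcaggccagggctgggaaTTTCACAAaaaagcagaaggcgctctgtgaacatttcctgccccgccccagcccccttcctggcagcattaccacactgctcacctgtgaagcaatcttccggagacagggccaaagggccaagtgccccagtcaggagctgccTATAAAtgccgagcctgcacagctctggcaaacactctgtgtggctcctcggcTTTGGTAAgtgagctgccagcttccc

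For S100A8, RefSeq gives 3 overlapping windows, and the window shown was picked because its TATAAA lies nearest to the usual place of a TATA box. In both windows TATAAA begins 29 bases before the start site. The GAGGAA core, read on the other strand as TTCCTC, begins 189 bases before the start site of S100A8 and 208 bases before that of S100A9. TTNNGNAA occurs in both windows before and after the start site, at -117 and 20 in S100A8 and at -173 and 25 in S100A9. Of 35116 promoter windows of the same length, 11.5% hold TATAAA, 36.8% hold TTNNGNAA and 27.9% hold GAGGAA on either strand. These matches describe letters in the windows and do not show that a factor was bound there. Of the 10 genes, 9 had a RefSeq promoter entry and LGALS1 had none in the table used.

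All 6 S100 genes lie on chromosome 1 on GRCh38 (GENCODE release 29). S100A9 (153357854 to 153361027, plus strand), S100A8 (153390032 to 153391188, minus), S100A6 (153534599 to 153536244, minus) and S100A4 (153543613 to 153550136, minus) form a close group. S100A10 (151982915 to 151994390, minus) and S100A11 (152032506 to 152047907, minus) lie apart from them. AIF1 lies on chromosome 6 (31615184 to 31617021, plus), LGALS3 on chromosome 14 (55124110 to 55145413, plus), LGALS9 on chromosome 17 (27629798 to 27649560, plus) and LGALS1 on chromosome 22 (37675608 to 37679806, plus). The longest annotated coding sequences span 270 nt in S100A6 to 342 nt in S100A9 among the S100 genes. They span 483 nt in AIF1, 405 nt in LGALS1, 750 nt in LGALS3 and 1065 nt in LGALS9, so that all but LGALS3 and LGALS9 stay under 500 nt. Of the exon bases of LGALS9, 5.15% overlap another gene on the same strand, and 2.37% of those of S100A6 overlap an antisense gene. Whether reads from such bases were counted for these genes is unknown, since the strand setting of the counting is not stated.

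Set on 1 scale of CPM per kb of the longest coding transcript, the genes spanned a wide range in input RNA. Averaged over the 4 input libraries, LGALS1 stood at 1397 and S100A11 at 1357 CPM per kb, with library ranges of 1138 to 1637 and 993 to 1704 that overlapped. S100A4 followed at 1064, S100A8 at 907, S100A6 at 578 and AIF1 at 514 CPM per kb. S100A10 stood at 257 and S100A9 at 208 CPM per kb, and their library ranges of 184 to 321 and 105 to 365 overlapped. LGALS9 at 80.5 (64.4 to 100 across libraries) and LGALS3 at 31 CPM per kb (26.4 to 34.6) came last and did not overlap each other or any other gene of the 10. Dividing by all annotated exon bases instead put S100A11 at 1185 ahead of LGALS1 at 712 CPM per kb.

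**Figure D1:**
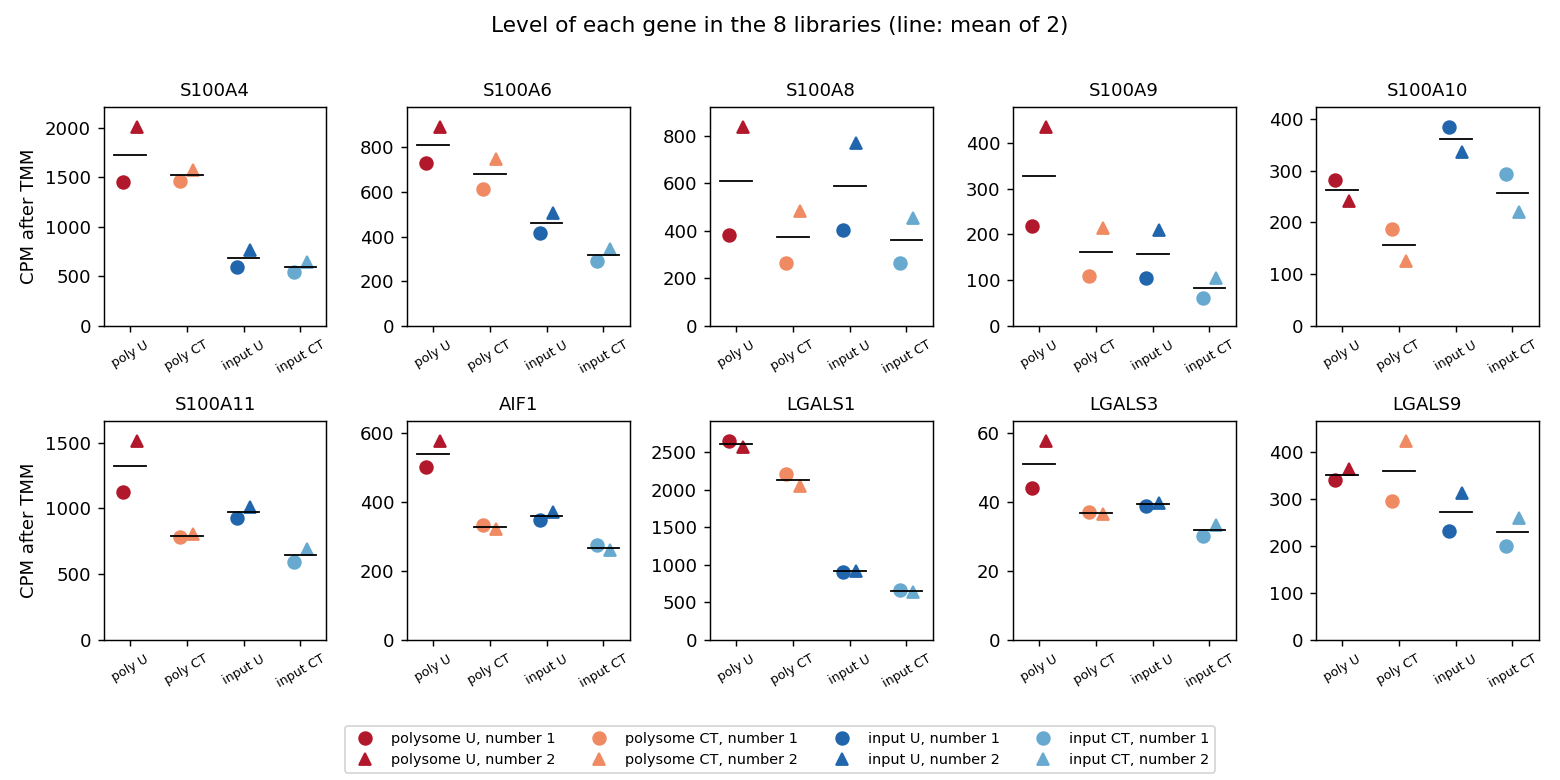
CPM of the 10 genes in the 8 libraries after TMM scaling, 1 panel a gene, with a linear axis from 0. Circles are libraries numbered 1, triangles those numbered 2, and the line is the mean of the 2 libraries of a group. LGALS1 stood at 2044 to 2650 CPM in polysome RNA and at 637 to 917 CPM in input RNA, and S100A8 was higher in triangles than in circles in every group.

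Polysome RNA was set against input RNA to ask which of these mRNAs made up a larger share of the ribosome-loaded RNA than of the whole lysate. In the edgeR quasi-likelihood fit over all 8 libraries, averaged over both labels and with Benjamini-Hochberg adjustment over 16503 genes, 7 of the 10 genes were higher in polysome RNA, 1 was lower and 2 did not pass an adjusted p of 0.05. Of all genes tested, 42.9% passed, 20% as higher and 22.8% as lower. The median log2 fold change was 0.47 over the 10 genes and -0.22 over all genes tested. Genes with a longest coding sequence under 500 nt had a median of 0.04 over 1088 genes, of which 29.7% were called higher. Genes with a longer coding sequence had a median of -0.13 over 12011 genes, of which 23.9% were called higher. Genes with no annotated coding sequence are in neither set, but they count in the values over all genes tested. Both medians of coding genes lay above the -0.22 over all genes tested. Values are shares of a library, so they do not show whether the amount per cell changed, and fewer cells of a type and less RNA per cell cannot be told apart in bulk samples.

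LGALS1 is the gene for galectin-1, which crosslinks glycoproteins such as CD45 and CD43. Before any correction for GC content and exon length, LGALS1 had the highest polysome share of the 10 genes relative to input. It stood at 2650 and 2573 CPM in polysome U and 2208 and 2044 CPM in polysome CT, against 908 and 917 CPM in input U and 667 and 637 CPM in input CT. No polysome library overlapped an input library. Within the 4 lysates U1, U2, CT1 and CT2, polysome CPM was 2.92, 2.81, 3.31 and 3.21 times input CPM. Polysome over input was 1.61 on the log2 scale (SE 0.06, adjusted p = 2.5e-07, edgeR). With that correction it was 1.45, against 1.53 for S100A4.

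S100A4, which binds non-muscle myosin and is known from cell migration, came next before that correction. It stood at 1449 and 2010 CPM in polysome U and 1464 and 1579 CPM in polysome CT, against 595 and 770 CPM in input U and 541 and 647 CPM in input CT. The log2 fold change was 1.35 (SE 0.12, adjusted p = 1.3e-05, edgeR), and polysome CPM was 2.44 to 2.71 times input CPM across lysates. S100A6, or calcyclin, stood at 728 and 891 CPM in polysome U and 613 and 749 CPM in polysome CT, against 415 and 507 CPM in input U and 292 and 343 CPM in input CT. The fitted log2 fold change was 0.96 (SE 0.11, adjusted p = 5.4e-05, edgeR). LGALS1, S100A4 and S100A6 were the 3 of the 10 genes for which every polysome library lay above every input library, a pattern held by 17.7% of all genes tested.

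The genes for the calprotectin pair differed in their polysome share. S100A8 stood at 382 and 838 CPM in polysome U and 263 and 484 CPM in polysome CT, against 405 and 769 CPM in input U and 266 and 456 CPM in input CT. Polysome and input libraries of S100A8 overlapped, polysome CPM was 0.944 to 1.09 times input CPM across lysates, and the log2 fold change was 0.05 (SE 0.30, adjusted p = 0.914, edgeR). S100A9 stood at 218 and 435 CPM in polysome U and 109 and 213 CPM in polysome CT, against 105 and 210 CPM in input U and 60.3 and 105 CPM in input CT. Polysome CPM of S100A9 was 1.81 to 2.08 times input CPM in every lysate, although libraries of different number overlapped. S100A9 passed, at 1.01 on the log2 scale (SE 0.31, adjusted p = 0.0231, edgeR). Once the lysate was a term of the fit, the log2 fold change was 0.03 (SE 0.05) for S100A8 and 1.00 (SE 0.06) for S100A9. Without that term the S100A9 call was lost with DESeq2 (adjusted p = 0.051). In edgeR it was lost when polysome U library 2, polysome CT library 2, input U library 1 or input CT library 1 was left out.

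The ratio of S100A9 to S100A8 CPM within a library does not depend on how libraries are scaled to each other. This ratio was 0.572 and 0.52 in polysome U and 0.416 and 0.44 in polysome CT, against 0.26 and 0.273 in input U and 0.227 and 0.23 in input CT. Every polysome library lay above every input library, and within lysates the polysome ratio was 1.84 to 2.2 times the input ratio. The pair was set side by side after its values had been seen. For that reason no test is given.

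**Figure D2:**
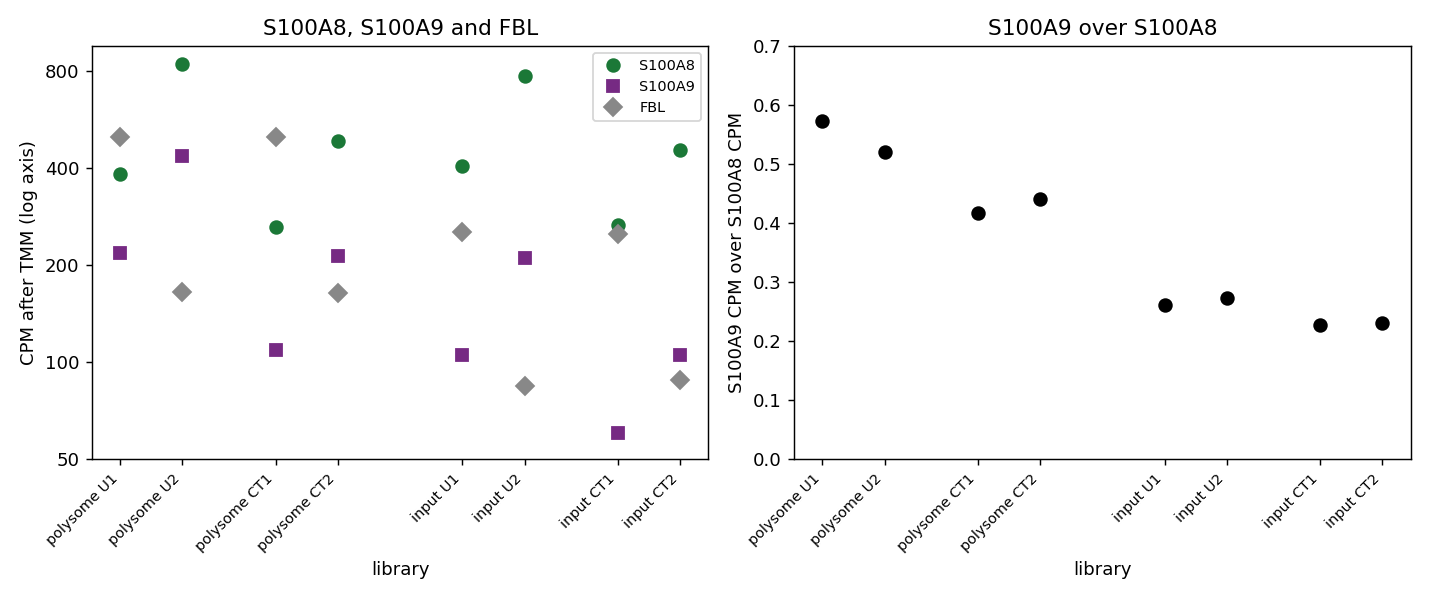
Left, CPM of S100A8, S100A9 and FBL in each library on a log axis; right, S100A9 CPM over S100A8 CPM in each library. S100A8 and S100A9 were higher, and FBL lower, in library 2 of each group, while the ratio on the right was 0.416 to 0.572 in polysome libraries and 0.227 to 0.273 in input libraries.

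S100A10 and S100A11 encode partners of annexins. S100A10, also called p11, has EF hands that no longer bind calcium and pairs with annexin A2. It stood at 282 and 242 CPM in polysome U and 188 and 126 CPM in polysome CT, against 385 and 336 CPM in input U and 294 and 221 CPM in input CT. Polysome CPM was 0.57 to 0.731 times input CPM, lower in each of the 4 lysates, a pattern held by 32.1% of all genes tested. S100A10 was the only gene of the 10 that fell, with -0.59 in log2 units (SE 0.14, adjusted p = 0.0057, edgeR).

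ANXA2, the gene for its partner, was higher in polysome RNA by 0.30 in log2 units (SE 0.07, adjusted p = 0.0048, edgeR). The ratio of S100A10 to ANXA2 CPM was 0.308 and 0.248 in polysome U and 0.262 and 0.195 in polysome CT, against 0.545 and 0.512 in input U and 0.453 and 0.372 in input CT. No polysome library reached an input library in this ratio, which was also set up after values had been seen. S100A11, or calgizzarin, a partner of annexin A1, stood at 1127 and 1513 CPM in polysome U and 778 and 804 CPM in polysome CT, against 927 and 1012 CPM in input U and 590 and 694 CPM in input CT. Its log2 fold change was 0.37 (SE 0.10, adjusted p = 0.0105, edgeR), and polysome CPM was 1.16 to 1.49 times input CPM in every lysate. That call was lost when input U library 1 or input CT library 1 was left out and with a filter at a mean of 10 CPM (adjusted p = 0.0509, edgeR).

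AIF1 stood at 501 and 576 CPM in polysome U and 332 and 320 CPM in polysome CT, against 346 and 370 CPM in input U and 274 and 259 CPM in input CT. Polysome libraries of CT lay below input libraries of U, so that the fractions overlapped across labels and parted within each label. Polysome CPM was 1.45, 1.56, 1.21 and 1.24 times input CPM in lysates U1, U2, CT1 and CT2. The log2 fold change was 0.44 (SE 0.07, adjusted p = 0.00066, edgeR).

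LGALS9 encodes galectin-9, which carries a pair of sugar-binding domains and binds the receptor TIM-3. It stood at 340 and 363 CPM in polysome U and 295 and 424 CPM in polysome CT, against 232 and 312 CPM in input U and 200 and 259 CPM in input CT. It passed at 0.51 on the log2 scale (SE 0.14, adjusted p = 0.0133, edgeR). The call was lost when polysome CT library 2 or input U library 1 was left out, and with a correction for GC content and exon length it was 0.31 (adjusted p = 0.108, edgeR). With that correction and the lysate as a term LGALS9 passed, again at 0.31 (adjusted p = 0.00034, edgeR). LGALS3, for galectin-3, the family member with a collagen-like tail, was low throughout. It stood at 44 and 57.7 CPM in polysome U and 37.2 and 36.4 CPM in polysome CT, against 38.9 and 39.7 CPM in input U and 30.2 and 33.3 CPM in input CT. At 0.29 in log2 units (SE 0.12, adjusted p = 0.0745, edgeR) it did not pass, although polysome CPM was 1.09 to 1.46 times input CPM in each lysate. With the correction for GC content and exon length LGALS3 passed at 0.80 (adjusted p = 0.00108, edgeR), and with DESeq2 it passed at 0.33 (adjusted p = 0.0478).

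**Figure D3:**
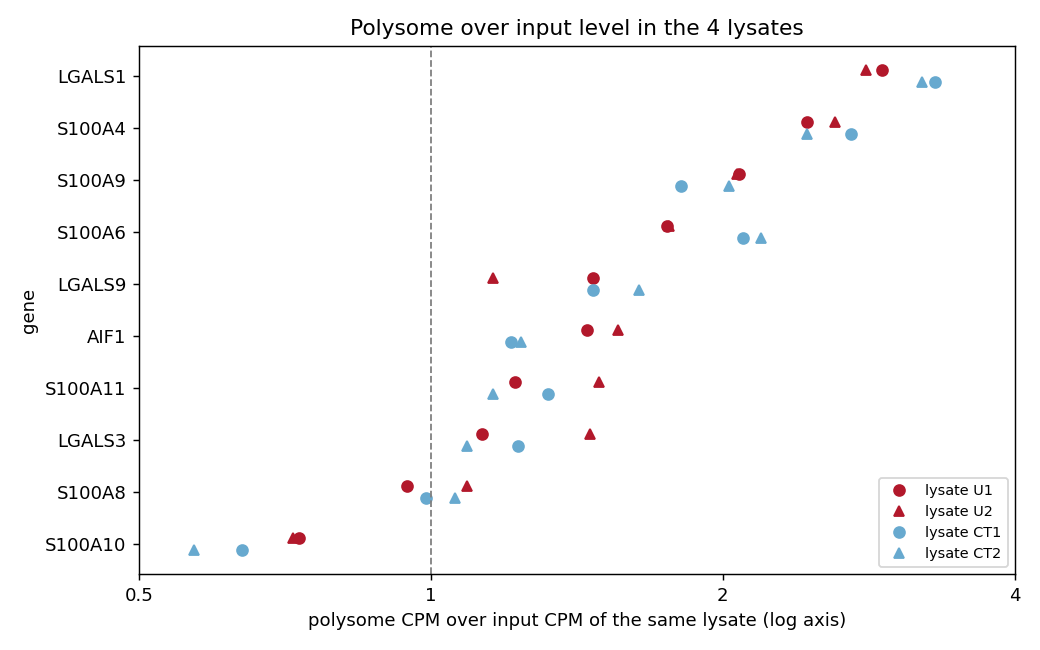
Polysome CPM over input CPM of the same lysate for the 10 genes, on a log axis, ordered by the mean over lysates. Circles are lysates numbered 1 and triangles those numbered 2; points run from 0.57 for S100A10 to 3.31 for LGALS1, and 8 genes lie right of 1 in all 4 lysates.

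Polysome RNA lay above input RNA within all 4 lysates for 8 of the 10 genes, against 23.8% of all genes tested. When input U library 1 was left out, S100A9, S100A11 and LGALS9 lost their calls and 4 genes were called higher in place of 7. S100A4, S100A6, S100A10, AIF1 and LGALS1 kept their calls under all 18 alternatives of processing and left-out libraries. Within the label U, 5 genes were called higher and 0 lower by edgeR, where 14.2% of all genes were called higher and 14.3% lower. S100A4, S100A6, S100A11, AIF1 and LGALS1 were those 5. The S100A11 call within U was lost in 5 of 18 alternatives, namely the filter at a mean of 10 CPM and leaving out polysome U library 2, polysome CT library 2, or either input U library. S100A10 stood at -0.46 within U (log2, SE 0.19, adjusted p = 0.102, edgeR). With the lysate as a term, S100A9, S100A10 and LGALS9 passed as well (adjusted p = 1.8e-08, 0.00016 and 0.00185, edgeR). Over all genes, that fit called 2810 of 16503 higher in U and 2953 lower. Within CT, 4 genes were called higher and 1 lower, where 16.5% and 12.7% of all genes were. They were S100A4, S100A6, LGALS1 and LGALS9, with S100A10 lower at -0.72 (SE 0.19, adjusted p = 0.0185, edgeR). The LGALS9 call within CT was lost in 4 of 18 alternatives, namely the filter at a mean of 10 CPM, the correction for GC content and exon length, and leaving out polysome CT library 2 or input CT library 1. With the lysate as a term, S100A9, S100A11 and AIF1 passed too (adjusted p = 6.4e-08, 0.00319 and 0.00485, edgeR), which brought the genes called higher in CT to 7. Over all genes, the fit with that term called 3139 of 16503 higher in CT, against 2720 without it. A call within 1 label and not the other is not a difference between labels, and the difference itself is described below.

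The libraries labelled U were set against those labelled CT to describe the pattern for which the genes were chosen. In polysome RNA 9 of the 10 genes had a positive log2 fold change of U over CT, with a median of 0.59 over the 10 and -0.06 over all genes tested. In input RNA all 10 did, with a median of 0.48 over the 10 and 0.00 over all genes tested. U lay above CT without overlap for 6 genes in polysome RNA and 7 in input RNA, patterns held by 15.4% and 21.1% of all genes tested. U lay below CT without overlap for 0 of the 10 genes in either fraction, against 23.6% of all genes in polysome RNA and 20.3% in input RNA. Nothing is read from these counts, since this contrast chose the genes. Over all genes, edgeR called 145 of 16503 (0.879%) in polysome RNA and 0 in input RNA. At an unadjusted p under 0.05, edgeR gave 744 of 16503 genes in input RNA, a share below the 0.05 that chance alone would give. That share depended on the fit. It stayed below 0.05 with the correction for GC content and exon length (670 of 16503). It was above 0.05 with the library number as a term (1257 of 16503) and with the 4 input libraries fitted alone (1619 of 15543). After adjustment, DESeq2 called 76 genes in input RNA and limma-voom 3.

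AIF1 averaged 538 ± 53.2 CPM in polysome U and 326 ± 8.38 CPM in polysome CT, and 358 ± 17 CPM in input U against 266 ± 10.6 CPM in input CT (SD, n = 2 each). The log2 fold change of U over CT was 0.72 (SE 0.10) in polysome RNA and 0.43 (SE 0.10) in input RNA. LGALS1 averaged 2611 ± 54.1 CPM in polysome U and 2126 ± 116 CPM in polysome CT, and 913 ± 5.92 CPM in input U against 652 ± 21.1 CPM in input CT (SD, n = 2 each). Its log2 fold change was 0.30 (SE 0.08) in polysome RNA and 0.48 (SE 0.08) in input RNA. For both genes each U library exceeded each CT library of the same fraction.

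S100A11 had log2 fold changes of 0.74 in polysome RNA and 0.59 in input RNA (SE 0.14 each). S100A10 had 0.74 in polysome RNA and 0.49 in input RNA (SE 0.19 each), and LGALS3 had 0.47 and 0.31 (SE 0.17 each). S100A11, S100A10 and LGALS3 showed no overlap of U and CT libraries in either fraction. S100A9 had the highest values of the 10, 1.02 in polysome RNA and 0.93 in input RNA, and S100A8 had 0.71 and 0.70, all with an SE of 0.43. The U libraries of S100A8 overlapped the CT libraries in both fractions. Those of S100A9 overlapped in neither fraction, but the gap was narrow. S100A9 stood at 218 CPM in polysome U library 1 against 213 CPM in polysome CT library 2. Input U library 1 and input CT library 2 both rounded to 105 CPM. S100A6 had 0.25 in polysome RNA and 0.54 in input RNA (SE 0.15 each), and S100A4 had 0.18 and 0.20 (SE 0.17 each). LGALS9 had -0.03 in polysome RNA and 0.24 in input RNA (SE 0.19 each), and the polysome value changed sign in 14 of 19 alternatives.

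**Figure D4:**
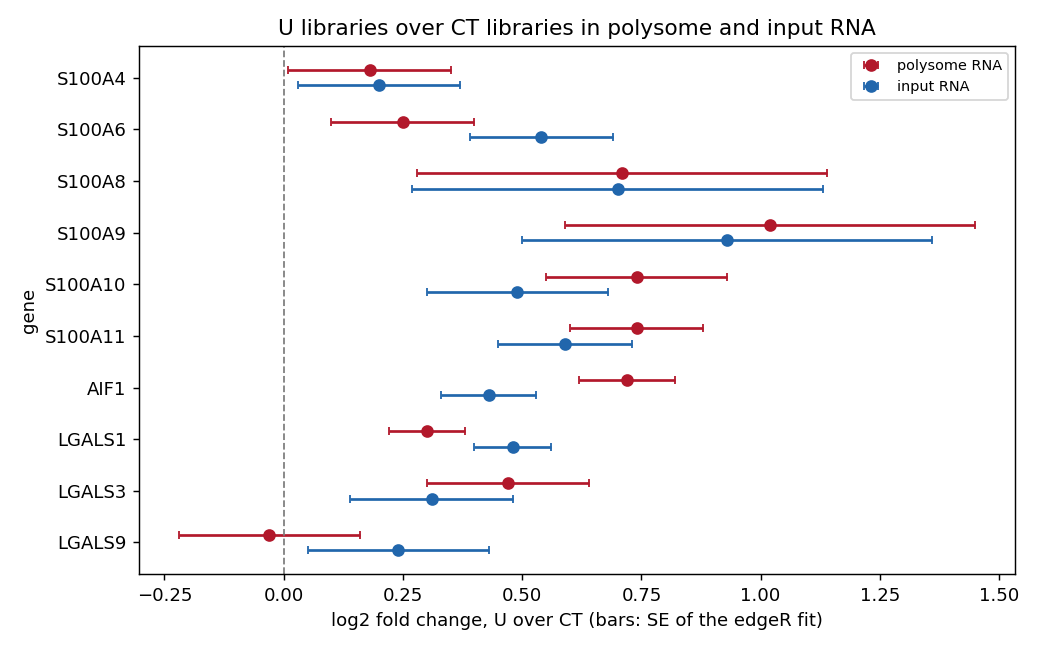
Log2 fold change of U over CT for the 10 genes in polysome and input RNA; bars are the SE of the edgeR fit, and no test is drawn because this contrast chose the genes. Points lie right of 0 except LGALS9 in polysome RNA at -0.03, and the bars of S100A8 and S100A9, at an SE of 0.43, are the widest.

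The difference between labels in polysome over input exceeded its SE for AIF1, LGALS1, S100A6 and LGALS9 and was below it for the other 6 genes. Nothing is read from this split, since the difference contains the contrast that chose the genes. AIF1 had a polysome minus input difference in log2 fold change of 0.30 (SE 0.14), and LGALS1 had -0.19 (SE 0.11). S100A6 at -0.29 (SE 0.21), LGALS9 at -0.28 (SE 0.27) and S100A10 at 0.25 (SE 0.27) were of similar size with wider errors. S100A4, S100A8, S100A9, S100A11 and LGALS3 lay between -0.02 and 0.16. Over 18 alternatives the difference ranged from 0.19 to 0.43 for AIF1 and from -0.44 to -0.05 for S100A6. That of LGALS1 ranged from -0.24 to 0.01 and that of LGALS9 from -0.52 to 0.04, each with 2 changes of sign. With the correction for GC content and exon length, polysome over input was 1.45 in both labels for LGALS1. In U and CT it was 0.82 and 0.88 for S100A6, 0.93 and 0.52 for AIF1, and 0.24 and 0.39 for LGALS9. Over all genes edgeR called 0 for this difference, with 1046 at an unadjusted p under 0.05, while DESeq2 called 10 and limma-voom 0 after adjustment.

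The number of the library, which the labels do not tie to a treatment, went with S100A8 and S100A9 in each of the 4 groups. Library 2 held 2.19, 1.84, 1.9 and 1.71 times the S100A8 CPM of library 1 in polysome U, polysome CT, input U and input CT. For S100A9 these folds were 1.99, 1.94, 2 and 1.74, in the same order of groups. From a fit with the number as a term, the log2 fold change of library 2 over library 1 was 0.93 (SE 0.06) for S100A8 and 0.94 (SE 0.06) for S100A9, against a median of -0.01 over all genes and a range from the 2.5th to the 97.5th percentile of -2.12 to 2.23. FBL had -1.57 (SE 0.05) on the same scale. LGALS9 at 0.35, S100A4 at 0.30, S100A6 at 0.28 and S100A11 at 0.21 were also higher in library 2, and S100A10 at -0.35 was lower. AIF1 at 0.04 and LGALS1 at -0.05 hardly moved with the number. With the number as a term, U over CT for S100A8 was 0.67 in polysome RNA and 0.68 in input RNA, and for S100A9 it was 1.01 and 0.90, each with an SE of 0.09.

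By level across libraries, the genes most like LGALS1 among the 8159 genes that averaged 10 CPM or more were RPS9, a ribosomal protein gene (Pearson r 0.9978 of log2 CPM over 8 libraries), PSMD4, a proteasome subunit gene (0.9969), and COX8A, a cytochrome c oxidase subunit gene (0.9966). The genes most like AIF1 were NDUFA12, of respiratory complex I (0.9900), IFITM2, an interferon-induced membrane protein gene (0.9808), and PSMA3, a proteasome subunit gene (0.9768). Among the 10 genes, S100A11 and LGALS3 had r = 0.981, LGALS1 and S100A4 had 0.960 and AIF1 and S100A11 had 0.952. These values describe 4 groups of 2 libraries that share fraction and label, and no p is given.

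Other genes of the same families were mostly silent or low. Of 14 other S100 genes, 6 passed the filter and 9 stayed under 1 CPM in every library, and together they summed to 21 to 31.3 CPM, against 3214 to 9499 CPM for the 10 genes. edgeR called 0 of these 6 in polysome against input RNA (median 0.26). Of 13 other galectins, 5 passed the filter, 1 rose and 2 fell. LGALS12, a galectin of fat and myeloid cells, averaged 161 ± 17.6 CPM in polysome U and 203 ± 3.33 CPM in polysome CT, and 87.4 ± 8.08 CPM in input U against 104 ± 7.01 CPM in input CT (SD, n = 2 each). LGALS12 rose by 0.92 in log2 units (SE 0.09, adjusted p = 1.9e-05, edgeR). LGALS8, for galectin-8, had -0.72 (SE 0.09, adjusted p = 0.00015, edgeR), which was lost with the correction for GC content and exon length.

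Of 13 annexins, 8 were tested in polysome against input RNA, 3 rose and 1 fell, with a median of 0.14. ANXA6 rose by 0.91 (SE 0.09, adjusted p = 2e-05) and ANXA11 by 0.77 (SE 0.07, adjusted p = 1.1e-05), both log2 values from edgeR. ANXA7 had -0.69 (SE 0.15, adjusted p = 0.00346, edgeR), a direction that turned with the correction for GC content and exon length. ANXA1, the gene for the partner of S100A11, was the only annexin called between labels in polysome RNA, at 89.7 ± 0.836 CPM in U and 43.3 ± 0.0179 CPM in CT (SD, n = 2 each). U over CT was 1.05 on the log2 scale (SE 0.15, adjusted p = 0.0331, edgeR), and edgeR called 41 genes (0.248%) higher in that comparison. The ANXA1 call was lost with the correction for GC content and exon length and with the 4 polysome libraries fitted alone. In both of these edgeR called 0 genes, while several other settings called more, as listed in the closing section.

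Of 14 receptors and glycoprotein ligands of these proteins, 13 were tested, 1 rose and 8 fell in polysome RNA, with a median of -0.63. BSG, for basigin, a receptor of S100A9, rose by 0.43 (SE 0.08, adjusted p = 0.00198, edgeR), a direction that turned with the correction for GC content and exon length. PTPRC, for CD45, had -1.69 (SE 0.14, adjusted p = 8.8e-06), and LAMP2, a lysosomal ligand of galectin-3, had -1.57 (SE 0.17, adjusted p = 4.1e-05), both from edgeR. CD36 at -1.34 and ITGB1 at -1.15 lost their calls with that correction. Of 12 genes that build the sugars bound by galectins, 3 rose and 3 fell, with a median of -0.37. MGAT1 rose by 1.11 (SE 0.11), MGAT4B by 1.07 (SE 0.10) and MGAT5 by 0.55 (SE 0.10) on the log2 scale, all N-glycan branching enzymes. C1GALT1, which makes core 1 O-glycans, had -1.76 (SE 0.17, adjusted p = 2.1e-05, edgeR), B4GALT1 had -0.30 and MGAT4A had -0.56, the last of which turned with the correction. C1GALT1 was also lower in U than in CT in polysome RNA, at 5.41 ± 1.37 CPM in U and 13.8 ± 0.281 CPM in CT (SD, n = 2 each; log2 fold change -1.34, SE 0.24, adjusted p = 0.0405, edgeR).

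Of 24 other genes with EF hands, 7 rose and 8 fell in polysome RNA, with a median of 0.02. MYL6, a myosin light chain gene, had 1.12 (SE 0.10) and EFHD2 1.05 (SE 0.06), while NUCB2 had -1.68 (SE 0.15) and LCP1, for the actin bundler L-plastin, -0.87 (SE 0.11). Of 22 other short and abundant mRNAs, 12 rose and 5 fell, with a median of 0.22. MIF, a cytokine gene, had 1.87 (SE 0.13), GSTP1 1.53 (SE 0.06), NME1 1.21 (SE 0.06) and NME2 0.97 (SE 0.10). The ferritin chain genes FTH1 and FTL had -1.06 (SE 0.11) and -0.90 (SE 0.06). In polysome RNA, U was above CT by edgeR for MYL12B (0.63, SE 0.10), B2M (0.75, SE 0.10) and ARPC3 (0.72, SE 0.14).

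The summed level of monocyte markers was 2689 and 3297 CPM in polysome U and 2215 and 2506 CPM in polysome CT, against 2246 and 2697 CPM in input U and 1819 and 2082 CPM in input CT. Of 24 such markers, 23 were tested, and 3 were called higher in U than CT in polysome RNA (median 0.50), where 0.248% of all genes were, and 0 in input RNA (median 0.36). This list was chosen with earlier results of these data known, so nothing is read from that count. CD14, the lipopolysaccharide co-receptor, had 1.14 (SE 0.19, adjusted p = 0.0363), FCER1G 1.12 (SE 0.19, adjusted p = 0.0363) and FCGR1A 0.69 (SE 0.13, adjusted p = 0.0479), all from edgeR. Of 11 markers of granulocytes and their progenitors, 10 were tested and 0 were called between labels, with medians of -0.12 in polysome and -0.14 in input RNA. Their summed level was 4746 to 8107 CPM across libraries, above that of the monocyte markers in every library. Summed markers of lymphoid cells were at most 9.59 CPM, of erythroid cells and megakaryocytes at most 7.23 CPM, and of stromal and epithelial cells at most 2.6 CPM in any library. The part of the monocyte markers in the U over CT values of the 10 genes was not tested. In polysome against input RNA, 5 monocyte markers rose and 8 fell, with a median of -0.68, and LYZ, for lysozyme, had -1.74 (SE 0.12, adjusted p = 3.2e-06, edgeR). Every call between labels in polysome RNA was lost when polysome CT library 2 was left out or when the 4 polysome libraries were fitted alone. They were also lost over all 8 libraries with the correction for GC content and exon length. With that correction, and with the 4 polysome libraries alone, edgeR called 0 genes, while several other settings called more.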

How the data were processed

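The authors deposited raw read counts per gene for each of the 8 libraries. Per the submitters' processing notes, Trimmomatic 0.38, Bowtie2 and HTSeq 0.11.2 were used with build GRCh38. The role of each tool, the annotation release and the strand setting are not stated. Bowtie2 does not split a read over an intron, so reads across exon junctions may be missing; the effect on the values was not tested. Special lines of the counter (13.2% to 15% of reads) were left out. Libraries held 22171255 to 43118190 counted reads. IDs were named from GENCODE release 29.

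Counts were fitted with edgeR 4.0.16 (R 4.3.3), quasi-likelihood test, TMM scaling, filterByExpr, 4 group means and 4 residual degrees of freedom. P-values were adjusted by Benjamini and Hochberg over all 16503 genes. An SE is the log2 fold change over the root of F. DESeq2 1.42.0 and limma-voom (limma 3.58.1), other scalings and filters, GC and length offsets, left-out libraries and blocks were alternatives. The steps were also run on simulated counts, drawn independently for each library with no effect of lysate or number. That run cannot show how the steps behave with the lysate and number structure of these data.

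Input and polysome RNA of the same label and number were taken to come from 1 lysate, since per the labels' protocols both are drawn from the same supernatant; their deviations from the group means correlated at 0.368 in U and 0.319 in CT over 8159 genes. That block leaves 2 residual degrees of freedom. The labels name no lysate, batch or day that same-numbered libraries of U and CT share; their deviations correlated at 0.203 in polysome and 0.482 in input RNA.

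The 10 genes and the 12 lists of other genes were chosen with earlier results of these data known. All 10 and FBL are named; from each list, up to 4 genes per direction with the largest fold change among those called at a mean of at least 10 CPM may be named, here for the mean of both labels and for U over CT, with marker lists given mostly as counts. LGALS9B, LGALS9C and pseudogenes held few reads, and adding them to their parent genes moved no call.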

Additional observations from a re-analysis of the deposited data

How the results depend on the processing

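With 2 libraries a group, 1 library can decide a call. Among all genes, polysome against input RNA averaged over labels called 5537 to 7705 genes as libraries were left out in turn, against 7072 with all; within U 2677 (without input U library 1; 3128 without library 2) to 5197 against 4697, and within CT 3115 (without input CT library 1) to 5970 against 4810. The correction for GC content and exon length gave 2762 in CT and moved the median over all genes from -0.22 to 0.05, with 3315 higher and 1642 lower, against 3306 and 3766 without it. U over CT in input RNA had 0 calls, and 83 with no filter, 76 with DESeq2, 3 with limma-voom, 66 with the number as a block, 1 with block and correction together, and 0 to 1 as libraries were left out. U over CT in polysome RNA had 145 calls, and 1117 with no filter, 326 at a mean of 10 CPM, 1203 with DESeq2, 297 with limma-voom, 1053 with the block, 0 with the correction, 617 with both, 0 with the polysome libraries alone, and 0 to 1455 as libraries were left out: 1455 without polysome U library 1, 0 without polysome CT library 2, and 5 to 63 without any of the others. The polysome minus input difference had 0 calls, and 55 with no filter, 10 with DESeq2, 9 with the block, 10 with block and correction, and 0 to 55 as libraries were left out, with 55 without polysome U library 1, 16 without polysome CT library 1 and 0 otherwise. The cause of these changes was not tested, apart from the smaller sets of libraries.

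Of the 10 genes, 4 to 8 were called higher and 1 lower in the averaged comparison as libraries were left out, 4 to 7 higher and 0 to 1 lower within U, and 3 to 6 higher and 0 to 1 lower within CT, where S100A10 lost its call without polysome CT library 2 or input CT library 1. Within U, 8 were called higher with block and correction, and 1 was called lower with no filter, at a mean of 10 CPM, with the block, and with block and correction. Within CT, 7 were called higher with the block and 8 with both. Over all genes, the block called 3139 of 16503 higher within CT. Block and correction together called 2729 higher within CT and 3068 within U. S100A8 passed at 0.30 (adjusted p = 0.00078, edgeR) with block and correction only, and ranged from -0.29 to 0.34 over 18 alternatives. The block alone changed no call of the 10 genes in the averaged comparison; added to the correction it also restored that of LGALS9 (adjusted p = 0.00034, edgeR). Under the correction without and with the block, directions turned for ANXA7 (0.03 and 0.03), BSG (-0.06 and -0.06), MGAT4A (0.24 and 0.27), CTSD (-0.12 and -0.11) and PRTN3 (-0.07 and -0.07). The lowest count of the 10 genes in a library was 1197, for LGALS3; the effect of depth on the calls was not tested.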
